A study of Mus musculus with 4 samples.

Results

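The genes described here are 7 genes that were higher in mouse liver on a diet to which cholic acid (CA), one of the primary bile acids, had been added. They are Obp2a, Hsd17b6, Wnk4, Csn3, Vil1, Wfdc12 and Ltb, taken from 18194 genes that the array annotation names with a single symbol. The members were selected on the diet comparisons themselves, as genes at least 1.9-fold higher on the CA diet in mice without diethylnitrosamine (DEN), in mice given DEN, or in both. Their diet differences are therefore a description of that choice and support nothing. In the mice without DEN, 94 of 11651 expressed genes (0.807%) lay past 1.9-fold, among them 3 members. The lowest of these was Wnk4, at 3.33-fold as measured but against a level close to background, so that the supported bound is at least 1.95-fold, and the next member below the limit was Ltb at 1.03-fold. After DEN, 42 genes (0.360%) and 6 members lay past it, the lowest being Hsd17b6 at 2.16-fold, and Wnk4 at 1.20-fold was the member outside. Over all genes the limit fell between Lonrf3 (1.91-fold) and Clec4n (1.89-fold) without DEN, and between Zbp1 and Ces2b (both 1.9-fold when rounded) after DEN.

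Gene expression was measured by microarray in livers of mice aged 10 months. The design crossed DEN, a carcinogen that starts liver tumours in mice, with a diet containing 0.2% CA. The 4 groups were control diet without DEN, CA diet without DEN, DEN followed by control diet, and DEN followed by CA diet. Each group was 1 pool of livers from 3 to 5 mice on 1 array, so no replicate error exists, no test was made, and every difference below is that of 2 pools. The sources used here do not give strain, sex, DEN dose, length of feeding or how much tumour tissue entered each pool. In such bulk samples, fewer cells of a type and less RNA per cell cannot be told apart.

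Bile acids are made from cholesterol in hepatocytes, and the nuclear receptor FXR senses them and lowers their synthesis. A diet with CA enlarges the bile acid pool and engages this feedback. Bile acids also act as detergents on the epithelia that they pass, the bile ducts, the gallbladder and the intestine, whose cells carry a brush border of microvilli and secrete protective proteins. The 7 genes belong to different families. Obp2a encodes a lipocalin, a carrier of small lipophilic molecules. Csn3 encodes kappa-casein, the milk protein that stabilises casein micelles, and Wfdc12 a small secreted protein of the whey acidic protein (WAP) type. Vil1 encodes villin, which bundles actin in microvilli, and Ltb encodes lymphotoxin beta, a membrane-bound cytokine of the TNF family made mainly by lymphocytes. Wnk4 encodes a kinase that controls ion transport in kidney tubules, and Hsd17b6 a dehydrogenase that acts on steroids and retinoids. Ltb and Hsd17b6 are not epithelial markers, so the 7 genes are called by name here and not by a cell type.

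Levels are log2 values. The median of all probe sets, 4.86, served as the limit under which a level lies close to the background of the array. A gene was called expressed when its average level on the 4 arrays reached that limit. Counts of higher and lower genes start at 2-fold, a log2 difference of 1. A fold against a level under the limit was computed with that level raised to the limit and is written as at least that fold. All 7 members were expressed, but Csn3 and Vil1 passed only through the DEN pools. Cyp7a1, whose enzyme starts the classic route of bile acid synthesis, was lower on the CA diet, at 10.50 and 7.59 without DEN and 9.58 and 4.80 after DEN on control and CA diet. The tumour marker Afp stood at 4.77 and 4.10 without DEN and at 12.65 and 12.17 after it. Alb, which encodes albumin, differed by at most 0.082 in the 4 comparisons of pools. The largest difference of any of 18 hybridization control probe sets was 0.30 for the diets without DEN, 0.27 for the diets after DEN, 0.20 for DEN on the control diet and 0.37 for DEN on the CA diet.

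Of the 7 members, 3 were at least 2-fold higher on the CA diet without DEN and 6 after DEN, and 0 were lower by that much in either. Without DEN the count includes Wnk4 as measured, and with low levels raised to the limit it is 2. Of the expressed genes as a whole, 0.661% were higher and 0.592% lower by 2-fold or more without DEN, and 0.266% higher and 0.472% lower after DEN. Because the diet comparisons chose the members, these counts say nothing beyond the choice. What the choice left free is in which stratum each gene stood out. Obp2a and Hsd17b6 were at least 2-fold higher in both strata. Wnk4 stood out in mice without DEN, as measured and not with its low level raised, and Csn3, Vil1, Wfdc12 and Ltb were at least 2-fold higher in mice given DEN. In the plot of diet effects these 3 patterns lie at the upper right, the right and the top.

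**Figure D1:**
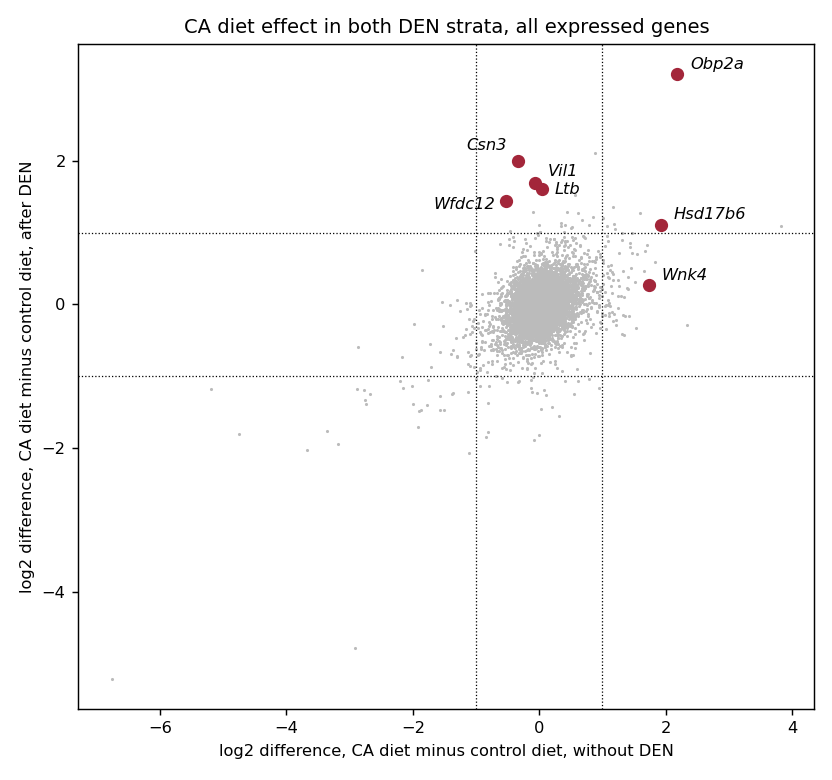
The log2 difference between CA and control diet without DEN (x axis) is set against that after DEN (y axis) for 11651 expressed genes (grey) and the 7 members (red); dotted lines mark 2-fold. Obp2a (2.19 and 3.21) and Hsd17b6 (1.92 and 1.11) lie past 2-fold on both axes, Wnk4 on the x axis alone (1.74 as measured, 0.96 with its low level raised), and the other members on the y axis alone.

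Obp2a had the largest increase with the CA diet of all expressed genes after DEN. Its log2 level was 5.15 on the control diet, 7.34 on the CA diet, 4.61 after DEN on the control diet and 7.82 after DEN on the CA diet. Both CA pools were high and both control-diet pools were close to the limit, so that the arrays separated by diet and not by DEN. The CA diet went with a 4.55-fold higher level without DEN, the third largest increase of 11651 genes, and an at least 7.79-fold higher level after DEN, the largest. DEN differed little by comparison, with a log2 difference of -0.55 under control feeding and 0.47 under CA feeding. The diet difference was larger after DEN than without it by 1.02, or by 0.77 with the low value raised to the limit.

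Hsd17b6 had the same order of diets at a different scale. Its levels were 9.46 on the control diet, 11.39 on the CA diet, 10.57 after DEN on the control diet and 11.68 after DEN on the CA diet. The control-diet pool without DEN was the lowest and the other 3 pools were higher, with both CA pools on top. It was 3.79-fold higher on the CA diet without DEN and 2.16-fold higher after DEN. DEN went with a 2.15-fold higher level on the control diet, which places it 493rd of the expressed genes, and with a log2 difference of 0.29 on the CA diet. All of this rests on 1 of 2 probe sets. The other one stood between 4.60 and 5.08 on the 4 arrays and differed by 0.045 and 0.10 between the diets. Both probe sets carry the same transcript accession in the annotation, and which of them reads the transcript of liver was not tested. With the mean of both, the diet differences were 0.98 and 0.61, under 2-fold.

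The upstream sequences of these 2 genes are shown because theirs were the diet differences past 2-fold in both strata. Each line gives the 250 bases before the annotated transcription start, 5′ to 3′ on the strand of the gene, from RefSeq (GRCm38.p6), with the matches to the searched motifs in capitals. For Obp2a the stretch is chr2:25699824-25700073 on the plus strand, and for Hsd17b6 it is chr10:128007612-128007861 on the minus strand, the more upstream of 2 annotated starts.
Obp2a: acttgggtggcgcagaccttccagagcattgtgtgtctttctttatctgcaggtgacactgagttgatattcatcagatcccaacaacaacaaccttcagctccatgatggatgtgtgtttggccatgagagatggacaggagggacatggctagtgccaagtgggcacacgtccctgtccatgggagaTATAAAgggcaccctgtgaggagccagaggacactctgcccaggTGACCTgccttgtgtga
Hsd17b6: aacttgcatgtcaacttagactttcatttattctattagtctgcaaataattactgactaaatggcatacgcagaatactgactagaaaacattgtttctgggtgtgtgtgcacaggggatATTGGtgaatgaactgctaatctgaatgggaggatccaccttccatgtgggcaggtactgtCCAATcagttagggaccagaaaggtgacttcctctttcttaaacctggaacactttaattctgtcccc

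The capitals in Obp2a mark TATAAA, the TATA box, 61 to 56 bases before the start, and TGACCT, the reverse of the nuclear receptor element AGGTCA, 17 to 12 bases before it. In Hsd17b6 they mark the CCAAT box in reverse (129 to 125 bases before the start) and forward (68 to 64 bases). Searched on both strands of 32851 promoter stretches of this length, TATAAA is present in 12.4%, AGGTCA in 14% and CCAAT in 33.8%. The core of the inverted repeat bound by FXR, GTCANTGAC, is present in 0.320% and in none of the 7 stretches of 6 members. The AP-1 motif TGANTCA (6.75%), the HNF1 motif GTTAAT (6.43%), the HNF4 motif CAAAGTCCA (0.384%) and the E-box CACGTG (6.02%) had no match in these stretches either. A match or its absence describes the letters of a stretch and says nothing on the binding of a factor. No Csn3 promoter was used here.

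**Figure D2:**
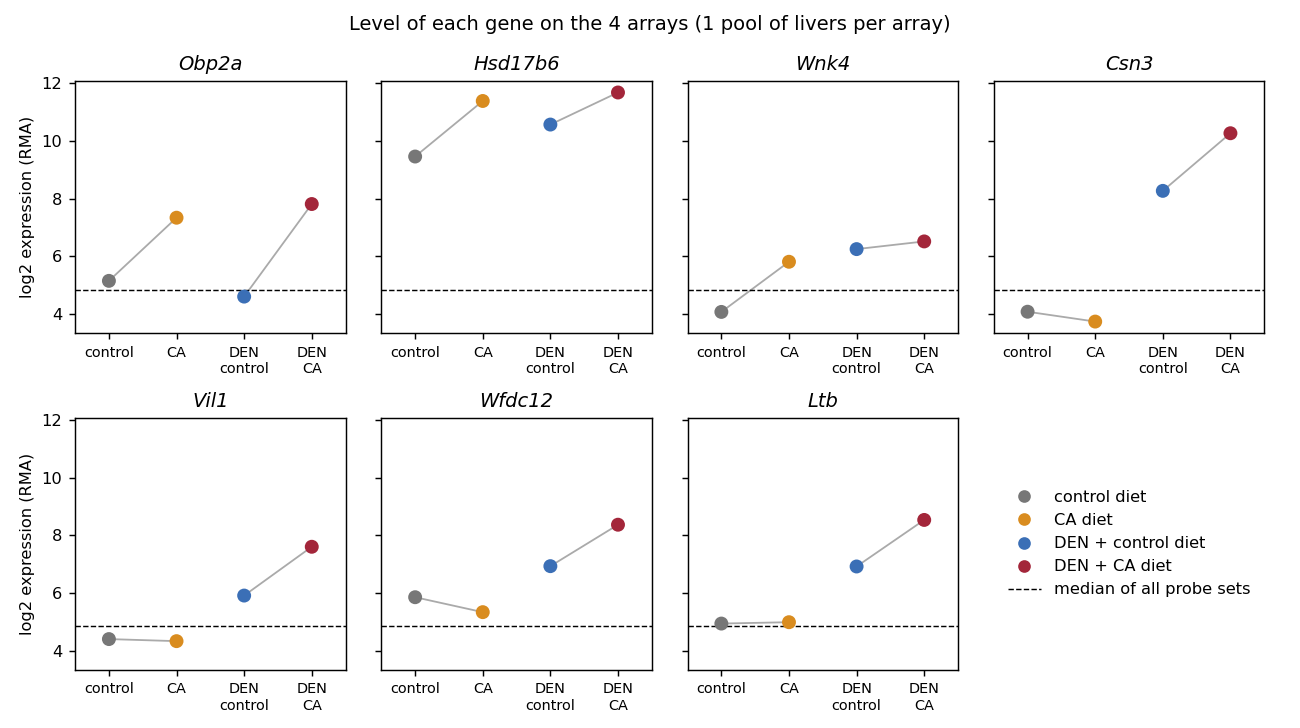
Log2 level of each member (y axis) on the 4 arrays (x axis), 1 point per array and pool, with a line joining the diets within a DEN stratum; the dashed line is the median of all probe sets. Obp2a is high on both CA arrays, Wnk4 low on 1 array, and Csn3, Vil1, Wfdc12 and Ltb are highest on the array of DEN with CA diet.

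Wnk4 was low in the pool that received neither treatment and higher in the other 3. It stood at 4.08 on the control diet, 5.82 on the CA diet, 6.25 after DEN on the control diet and 6.52 after DEN on the CA diet. Only the first level lay under the limit. Without DEN the CA diet went with an at least 1.95-fold higher level, just under 2-fold, while the unadjusted log2 difference was 1.74. After DEN the diets differed by 0.27, about as much as the hybridization control that differed most in that comparison. DEN went with an at least 2.64-fold higher level on the control diet and a log2 difference of 0.70 on the CA diet. The diet effect was smaller after DEN than without it by 1.47 on the log2 scale, or by 0.69 with the low level raised to the limit.

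Csn3 was close to background without DEN and among the genes with the largest differences after it. Its levels without DEN were 4.09 (control diet) and 3.74 (CA diet), against 8.27 after DEN on the control diet and 10.27 after DEN on the CA diet. Both pools without DEN lay under the limit, so their difference of -0.34 has no interpretable order. The CA diet after DEN went with a 3.99-fold higher level, the third largest increase. DEN itself went with an at least 10.7-fold higher level on the control diet and an at least 42.6-fold higher level on the CA diet. The other Csn3 probe set stayed between 2.16 and 2.79 on all 4 arrays, under the limit, with a diet difference of 0.63 after DEN. The mean of both probe sets still differed by 1.31 between the diets after DEN.

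Vil1, Wfdc12 and Ltb shared a pattern, higher after DEN and highest after DEN on the CA diet. Without DEN, Vil1 and Ltb were level between the diets and Wfdc12 was lower on the CA diet. Vil1 stood at 4.41 and 4.34 on control and CA diet without DEN and at 5.92 and 7.61 after DEN. Wfdc12 stood at 5.86 and 5.34 without DEN and at 6.94 and 8.37 after DEN. Ltb stood at 4.95 and 4.99 without DEN and at 6.92 and 8.54 after DEN. For each of the 3 genes both DEN pools lay above both pools without DEN, and the CA pool was the higher of the 2 DEN pools. The diet difference after DEN was 3.23-fold for Vil1, 2.70-fold for Wfdc12 and 3.06-fold for Ltb. Without DEN it was -0.072, -0.52 and 0.047 on the log2 scale, and both Vil1 levels lay under the limit.

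The upstream sequences of this group are shown for comparison, in the same form as above. The stretches are chr1:74409134-74409383 on the plus strand for Vil1, chr2:164190559-164190808 on the minus strand for Wfdc12 and chr17:35194257-35194506 on the plus strand for Ltb.
Vil1: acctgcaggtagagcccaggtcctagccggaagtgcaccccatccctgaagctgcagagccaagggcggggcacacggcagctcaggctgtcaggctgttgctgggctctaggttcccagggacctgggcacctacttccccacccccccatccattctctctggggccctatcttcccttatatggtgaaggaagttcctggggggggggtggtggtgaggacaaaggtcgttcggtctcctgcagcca
Wfdc12: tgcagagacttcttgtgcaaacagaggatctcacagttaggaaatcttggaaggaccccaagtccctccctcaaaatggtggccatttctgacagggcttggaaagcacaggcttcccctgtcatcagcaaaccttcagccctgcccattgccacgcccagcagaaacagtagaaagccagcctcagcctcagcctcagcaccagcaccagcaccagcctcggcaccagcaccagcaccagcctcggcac
Ltb: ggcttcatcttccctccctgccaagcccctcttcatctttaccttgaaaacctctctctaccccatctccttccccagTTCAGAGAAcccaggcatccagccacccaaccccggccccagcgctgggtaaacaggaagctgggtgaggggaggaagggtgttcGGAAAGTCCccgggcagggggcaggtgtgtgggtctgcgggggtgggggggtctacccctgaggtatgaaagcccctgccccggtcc

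Capitals in Ltb mark the STAT motif TTCNNNGAA, 172 to 164 bases before the start, and the NF-kB core GGNNTTTCC in reverse, 87 to 79 bases before it. These motifs are present in 7.02% and 4.93% of all promoter stretches. Vil1 and Wfdc12 held no match to any of the 10 motifs, so the 3 genes shared none of them. The GC content was 62.8% in Vil1, 57.2% in Wfdc12 and 63.2% in Ltb. All of these lay above the median of 52.4% over all stretches and below the 90th percentile of 69.2%. The Wnk4 stretch had the highest GC content of the members, 70.0%, with 17 CpG dinucleotides against a median of 6.

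The comparisons of DEN with no DEN were not part of the choice, although they share arrays with the diet comparisons. Csn3 and Vil1, however, were called expressed through the DEN pools alone, so they had to be higher after DEN and support nothing here. On the control diet, 6 of the 7 members, these 2 among them, were at least 2-fold higher after DEN and 0 lower, where 5.12% of expressed genes were higher and 0.901% lower. The other 4 were Wnk4 (at least 2.64-fold), Ltb (3.94-fold), Hsd17b6 (2.15-fold) and Wfdc12 (2.11-fold). With low levels raised to the limit the 6 genes still lay past 2-fold, the lowest being Vil1 at 1.06 on the log2 scale. The exception was Obp2a at -0.55. With arrays centred on the median of expressed genes, which shifted every difference here by -0.16, Hsd17b6 and Wfdc12 were under 2-fold and the other 4 of the 6 genes past it. The array of DEN with control diet is subtracted in the diet effect after DEN and added here, so the choice of genes on that diet effect leans against a high value on this array. The choice on the diet effect without DEN favours a low value on the control array, and with it a high DEN difference.

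On the CA diet, 4 of the 7 members (Csn3, Vil1, Wfdc12 and Ltb) were at least 2-fold higher after DEN and 0 lower, where 4.75% of expressed genes were higher and 1.75% lower. Wfdc12 was 8.16-fold higher, Ltb 11.7-fold and Vil1 at least 6.74-fold, while Obp2a, Hsd17b6 and Wnk4 differed by 0.47, 0.29 and 0.70. For Csn3 and Vil1 the direction was again fixed by the filter. The array of DEN with CA diet enters both this comparison and the choice of members on the same side, so these sizes are not free of the choice. Set against the pool with neither treatment, the pool with both was at least 42.6-fold higher in Csn3, 12.0-fold in Ltb, at least 6.74-fold in Vil1, 6.33-fold in Obp2a, 5.70-fold in Wfdc12, 4.65-fold in Hsd17b6 and at least 3.17-fold in Wnk4.

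The diet effects differed between the DEN strata by at least 2-fold in 6 of 7 members, and in 1.17% of expressed genes. The diet effect was larger after DEN in Csn3 (by 2.34), Wfdc12 (1.95), Vil1 (1.76), Ltb (1.56) and Obp2a (1.02). It was smaller in Wnk4 (-1.47) and, under 2-fold, in Hsd17b6 (-0.81). With low levels raised to the limit 4 members (Csn3, Vil1, Wfdc12 and Ltb) lay past 2-fold, since Obp2a and Wnk4 then stood at 0.77 and -0.69. Choosing genes for a large diet effect in 1 stratum favours such differences, and no test of them was possible.

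Likeness of pattern was measured as the Euclidean distance between the 4 log2 levels of 2 genes, each gene centred on its own mean, over 4 arrays. Among the members Vil1 and Ltb were closest (0.39), followed by Vil1 and Wfdc12 (0.49), Wfdc12 and Ltb (0.82) and Hsd17b6 and Wnk4 (0.96). Obp2a and Csn3 were farthest apart (5.74). Of all expressed genes, Vil1 had Ltb, Wfdc12 and 2010204K13Rik (0.63) as its nearest genes. Ltb had Vil1, Calml4 (0.55) and Ubd (0.72), the last 2 of them not members. The nearest to Wfdc12 were 2010204K13Rik, an uncharacterised gene (0.39), Meg3, an imprinted noncoding RNA (0.45), and Trib3, a pseudokinase of the stress response (0.48).

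For Obp2a the nearest genes were Ptgds (1.48), Cish (1.65) and Hsd17b6 (1.67). Ptgds encodes another lipocalin, prostaglandin D synthase, and stood at 6.72 and 8.31 on control and CA diet without DEN and at 6.46 and 7.73 after DEN. It was thus high on both CA arrays as Obp2a was, and its other probe set differed by 2.91 and 1.36 between the diets. Hsd17b6 was nearest to Socs3 (0.50), Ifi27l2a (0.54) and Marco (0.56), a cytokine feedback inhibitor, an interferon-induced gene and a macrophage receptor. Wnk4 was nearest to Cxcl10 (0.22), a chemokine gene, Abcb1a (0.25), a drug efflux pump, and Ckap2 (0.29), a mitotic protein. Csn3 was nearest to Wfdc15b (1.04), Fst (1.19) and Lcn2 (1.27). With 4 arrays many genes have like patterns, and nothing on shared function follows.

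Few other lipocalin genes differed between the diets as Obp2a did. Of 24 other family members listed, 18 were measured and 10 expressed. On the CA diet without DEN, Ptgds was at least 2-fold higher and Orm2, an acute phase protein gene, at least 2-fold lower, and after DEN only Ptgds was higher. Of all expressed genes 0.661% were higher and 0.592% lower without DEN, and 0.266% were higher after DEN. The median difference of the family was -0.0098 without DEN and 0.22 after DEN, against 0.015 and -0.022 over all expressed genes. Orm2 differed by -1.85 without DEN and 0.48 after it. The sign of the first median changed with the scaling. Lcn2, an iron-binding lipocalin of inflamed epithelium, differed by -0.47 and 0.83, and Orm3 by 0.41 and 0.88.

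Other milk protein genes were close to background. The caseins Csn1s1 and Csn2 and the whey protein genes Wap and Lalba lay under the limit on all 4 arrays, as did Elf5, a regulator of mammary alveoli, so that all 5 mammary epithelium markers were near background. Csn3 is known as a target of prolactin and STAT5. It lay under the limit in both pools without DEN, so only its diet difference after DEN can be read. The part of STAT5 in the Csn3 values was not tested. In the same list, 2 other targets of STAT5 were higher on the CA diet in both strata. Socs2, a feedback inhibitor of growth hormone signals, was 1.16 higher on the CA diet without DEN and 1.36 higher after DEN. Cish, of the same family, was 1.02 and 1.21 higher. Among 6 expressed genes of this list 2 were at least 2-fold higher in each stratum and 0 lower, with medians of 0.54 and 0.58. The shares higher among all expressed genes were 0.661% without DEN and 0.266% after DEN. Over all 17 measured genes of the list the medians were 0.068 and 0.072. Stat5a and Stat5b differed by at most 0.25 between the diets, and a second high probe set of Socs2 differed by 1.26 and 1.09 while 4 low ones ranged from -0.40 to 1.28.

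Most other actin-binding and brush border genes were level between the diets. Of 27 listed beside Vil1, 26 were measured and 20 expressed, with medians of -0.0029 without DEN, whose sign changed with the scaling, and 0.019 after DEN. Only Anxa13, an annexin of epithelial membranes, was at least 2-fold higher on the CA diet after DEN (1.52), where 0.266% of all expressed genes were. Without DEN 0 were higher or lower, near the shares of 0.661% and 0.592%. Anxa13 stood at 4.13 and 4.70 on control and CA diet without DEN and at 4.90 and 6.42 after DEN. Both levels without DEN lay under the limit. Anxa13 was called expressed through the pool of DEN with CA diet alone. Its higher level in that pool was thus fixed by the filter and supports no likeness to Vil1. Among the relatives of villin, Vill differed by -0.37 and 0.33, and Capg, a capping protein, by 0.47 and 0.21. Pls1, fimbrin of microvilli, was 1.59 higher after DEN on the control diet, yet differed by -0.44 between the diets after DEN. Baiap2l1, a membrane-bending protein, differed by -0.012 and -0.60.

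The WAP family held no further gene at least 2-fold different between the diets among 10 expressed members. This is near the shares of all expressed genes, 0.661% higher and 0.592% lower without DEN and 0.266% and 0.472% after DEN. The family medians were 0.058 without DEN and 0.29 after DEN. Wfdc2, an epithelial secretory protein gene, differed by 0.58 and 0.86, Wfdc17 by 0.58 and 0.42 and Wfdc3 by 0.51 and 0.45. The Wfdc3 level on the control diet without DEN, 4.41, lay under the limit, so its 0.51 is as measured only. The other Wfdc3 probe set differed by 0.21 and -0.055. Wfdc15b, which lies 2 genes away from Wfdc12 on chromosome 2, stood at 4.68 and 4.53 without DEN and at 8.96 and 9.76 after DEN. It was thus far higher in both DEN pools, with a diet difference of 0.81 between them. Wfdc15b was called expressed through the DEN pools alone, so its direction with DEN was fixed by the filter. In all, 3 of the 10 expressed genes were at least 2-fold higher after DEN on the control diet, where 5.12% of all expressed genes were. Beside Wfdc15b these were Slpi (2.30) and Wfdc3 (1.04 as measured, against a level under the limit, and -0.32 in its other probe set). Slpi, a leukocyte protease inhibitor gene, differed by -0.44 between the diets after DEN.

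After DEN, no other expressed gene of the Ltb pathway list differed by 2-fold between the diets, whereas without DEN several differed more than Ltb did. Its receptor gene Ltbr differed by 0.034 without DEN and -0.29 after DEN, and Relb and Nfkb2, the transcription factors downstream of that receptor, by 0.15 and 0.37 and by 0.0090 and 0.48. Of 19 expressed genes of the list, 2 were at least 2-fold higher on the CA diet without DEN, Tnfrsf12a (1.16) and Icam1 (1.03), and 0 after DEN, where these stood at -0.24 and 0.17. Of all expressed genes 0.661% were higher by that much without DEN and 0.266% after DEN, so 0 after DEN is near that share. The list medians were 0.18 and 0.048. Vcam1, an adhesion molecule, differed by 0.96 and -0.25, and Tnfaip3, an inhibitor of NF-kB, by 0.91 and 0.18. The other probe set of Tnfrsf12a differed by 0.69, under 2-fold, and those of Vcam1 by 0.74 and -0.0043, all without DEN. Ltb itself was higher in the other stratum. DEN on the control diet went with 5 of these 19 genes at least 2-fold higher, Tnfrsf12a the most (3.05), where 5.12% of all expressed genes were.

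For the WNK pathway, of 16 other expressed genes 0 were at least 2-fold higher or lower between the diets in either stratum, a share near the background given above, with medians of 0.036, whose sign changed with centring on expressed genes, and -0.055. Wnk1 differed by 0.023 and -0.11 and the target kinase Oxsr1 by 0.075 and 0.0036. The cation chloride cotransporters Slc12a4, Slc12a7 and Slc12a9 differed by 0.37, -0.18 and -0.18 without DEN and by -0.17, -0.21 and -0.35 after DEN. Sgk1, a kinase of sodium transport, differed by 0.14 and -0.37. Slc12a2, another cotransporter, differed by 0.084 and 0.0084, but its dimmer probe sets differed by -0.060 and 1.22 and by 0.33 and 0.46. All 4 kidney tubule markers, Umod, Slc12a1, Slc12a3 and Aqp2, lay under the limit on all 4 arrays.

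Steroid and retinol dehydrogenases differed in both directions. Of 25 other expressed genes, 0 were at least 2-fold higher on the CA diet and 2 were lower by that much in both strata. These were Rdh11 (-2.68 without DEN and -1.25 after DEN) and Hsd17b7 (-1.99 and -1.38). The other Rdh11 probe set differed by -2.32 and -0.98. Those of Hsd17b7 differed by -1.80 and -1.10, by -1.66 and -0.99 and, for a low one, by -0.76 and 0.27. The call after DEN thus varied with the probe set. Of all expressed genes 0.592% were lower without DEN and 0.472% after DEN. The shares higher were 0.661% and 0.266%, so 0 higher is near the background. Hsd17b7 acts in cholesterol synthesis. Rdh16, which lies close to Hsd17b6 on chromosome 10, differed by -0.98 and -0.94. Hsd17b11, a dehydrogenase of lipid droplets, differed by 0.86 and 0.44, and a dimmer probe set of it by 1.75 and 0.74. The list medians were -0.12 and 0.015.

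**Figure D3:**
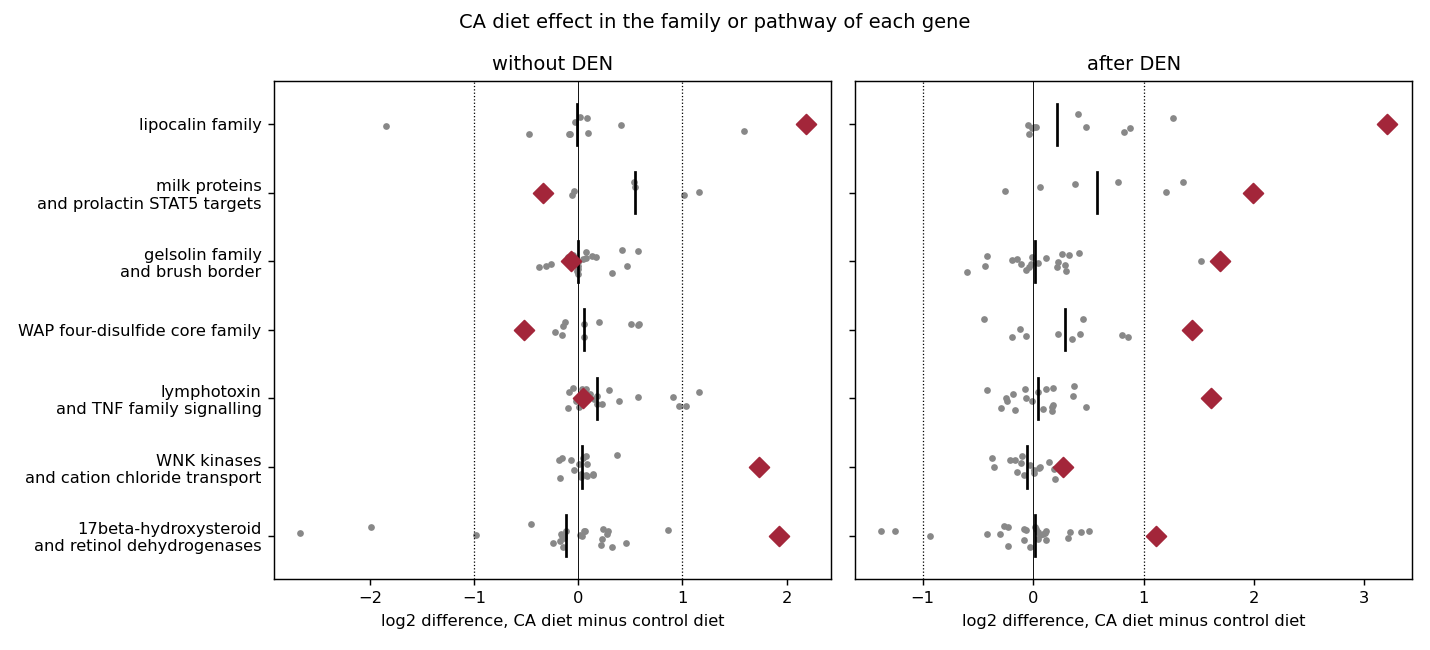
Log2 difference between CA and control diet (x axis) for the expressed genes of each family or pathway (grey points), their median (black bar) and the member itself (red diamond), without DEN on the left and after DEN on the right; dotted lines mark 2-fold. All 7 members, which were chosen for this difference, lie to the right of their expressed relatives after DEN, and Obp2a, Wnk4 and Hsd17b6 do so without DEN.

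The genes that adjoin the members on the chromosome were examined next. For each member the 5 protein-coding genes on either side were taken from the RefSeq gene order, 70 places in all, of which 59 were measured and 36 expressed. None of these 36 was at least 2-fold higher on the CA diet in either stratum, which is near the background of 0.661% and 0.266%, and 2 were so after DEN on the control diet, against 5.12%. In the casein cluster the 8 measured neighbours of Csn3 were all unexpressed. The neighbours of Ltb in the TNF gene cluster, Tnf and Lta, were unexpressed too and differed by 0.021 and 0.045 between the diets after DEN. Beside Obp2a, Bmyc, a relative of the Myc oncogene, was the sole expressed neighbour of 6 measured, and it differed by 0.66 without DEN and 0.58 after DEN, in the direction of Obp2a. Beside Hsd17b6, Rdh7 differed by 0.33 and 0.091. Wfdc15b beside Wfdc12 and Apom beside Ltb were the 2 higher after DEN, at 4.28 and 1.22. For Wfdc15b, called expressed through the DEN pools alone, the direction was fixed by the filter.

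**Figure D4:**
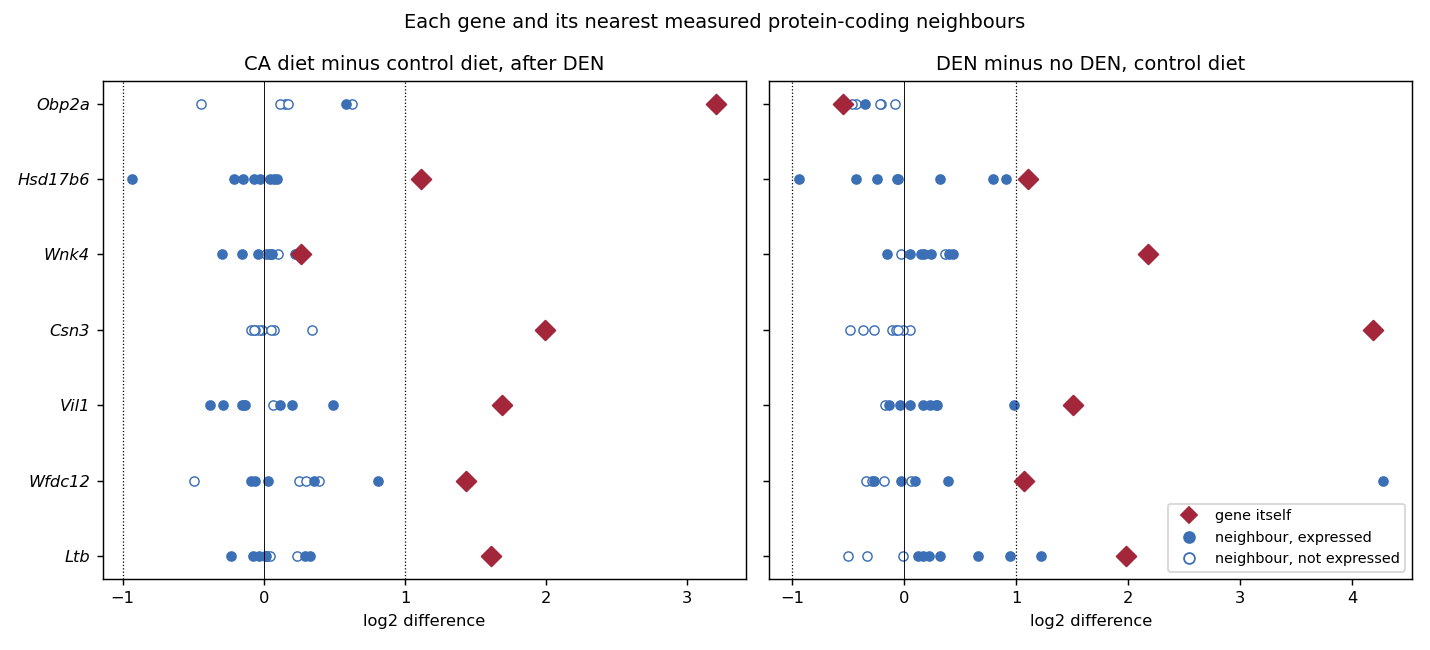
Log2 difference (x axis) of each member (red diamond) and of its measured protein-coding neighbours, 5 places to either side (blue circles, open where not expressed), for CA against control diet after DEN on the left and for DEN under control feeding on the right; dotted lines mark 2-fold. On the left no neighbour passes 2-fold, and on the right Wfdc15b at 4.28 is the neighbour farthest out.

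Markers of other cell types were examined because several members are better known outside the hepatocyte. Of 9 measured cholangiocyte markers, 4 lay under the limit on all 4 arrays, among them the keratin gene Krt7, and Krt19, the duct keratin, exceeded it on 1 array (4.94, after DEN on the control diet). Among the 4 expressed ones, Sox9, a factor of ducts and progenitors, stood at 4.74 and 5.11 without DEN and at 6.05 and 6.63 after DEN. Tspan8, a tetraspanin of epithelial and tumour cells, stood at 3.69 and 3.92 without DEN and at 11.38 and 11.75 after DEN. It was called expressed through the DEN pools alone, so its direction with DEN was fixed by the filter. Epcam, an adhesion protein of epithelia, stayed between 5.36 and 5.71, while its other probe set was 1.03 higher after DEN on the control diet and differed by 0.39 and -0.28 between the diets. Onecut1, also a hepatocyte factor, differed by 1.09 and 0.89 between the diets. The median diet difference of the 4 was 0.30 without DEN and 0.48 after DEN, with the brightest probe set of each gene. A second Sox9 probe set differed by 0.24 and -0.17 and a dimmer Sox9 set by -0.12 and 0.23. The other Onecut1 set differed by 1.26 and 0.32, and the other Tspan8 sets ranged from -0.097 to 0.77 after DEN. The summed log2 levels of all 9 were 40.3 on the control diet, 42.8 on the CA diet, 49.9 after DEN on the control diet and 52.0 after DEN on the CA diet. Tspan8 alone made 7.69 of the difference with DEN on the control diet, for which the median over the 9 was -0.0017.

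Of 14 intestinal and gallbladder markers, 7 lay under the limit on all 4 arrays, including Cdx1, Cdx2 and Muc2, which define intestinal epithelium. Cdh17, an intestinal cadherin, stood at 3.31 and 3.18 without DEN and at 8.25 and 7.19 after DEN, so that it was 1.06 lower on the CA diet after DEN. Krt20, a keratin of intestine, stood at 3.29 and 2.87 without DEN and at 6.31 and 7.11 after DEN, 0.80 higher on the CA diet. Cdhr2, which links microvilli, stood at 3.99 and 3.94 without DEN and at 5.90 and 6.20 after DEN. The summed log2 levels of the 14 were 67.1 and 67.0 without DEN and 74.2 and 75.6 after DEN. Cdh17, Krt20 and Cdhr2 were higher in both DEN pools. They were called expressed through those pools alone, so they had to be higher after DEN and support no likeness to the members. The other 3 expressed markers were lower or differed little. With DEN on control and CA diet, Lgals4 differed by -0.47 and -0.67, Cdhr5 by -0.31 and -0.59 and Fabp2 by 0.29 and 0.27. The diet differences of Cdh17, Krt20 and Cdhr2 after DEN did not run in 1 direction. The part of such epithelial cells in the values of the members was not tested.

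Lymphocyte markers bear on Ltb. Of 4 expressed T and NK cell markers 0 were at least 2-fold different between the diets, a share near the background given above. Cd3e, a chain of the T cell receptor complex, stayed between 5.45 and 5.73. Cd3d stood at 5.13 and 4.72 without DEN and at 5.49 and 5.83 after DEN, the same order of pools after DEN as Ltb, with a diet difference of 0.34 against 1.61. Cd3g, of the same complex, and Nkg7, of cytotoxic cells, were not called expressed. Cd3g had the reverse order after DEN (5.31 and 4.71), with the second level under the limit. Nkg7 differed by -0.049 between the diets after DEN. With DEN on control and CA diet, Cd3g differed by 1.11 and 0.41 and Nkg7 by 0.98 and 1.08. Their levels without DEN all lay under the limit. The B cell markers Cd79a and Ms4a1 lay under the limit on all 4 arrays. Cd79b, not called expressed, stood at 4.53 and 4.63 without DEN and at 4.97 and 5.20 after DEN. Both levels without DEN lay under the limit, so only its DEN pools can be read, in the order of Ltb. Jchain, of plasma cells, was 0.90 lower on the CA diet after DEN. The dendritic cell and MHC class II markers had medians of 0.34 between the diets without DEN and 0.0090 after DEN, and 1.46 for DEN under control feeding. Summed over each list, the log2 levels of the 4 pools, in the order of groups given at the start, were 34.9, 34.5, 36.7 and 36.9 for 7 T and NK cell markers and 23.9, 24.1, 27.3 and 26.5 for 5 B and plasma cell markers. The part of these cells in the Ltb values was not tested. Exocrine pancreas markers differed by at most 0.37 between the diets.

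**Figure D5:**
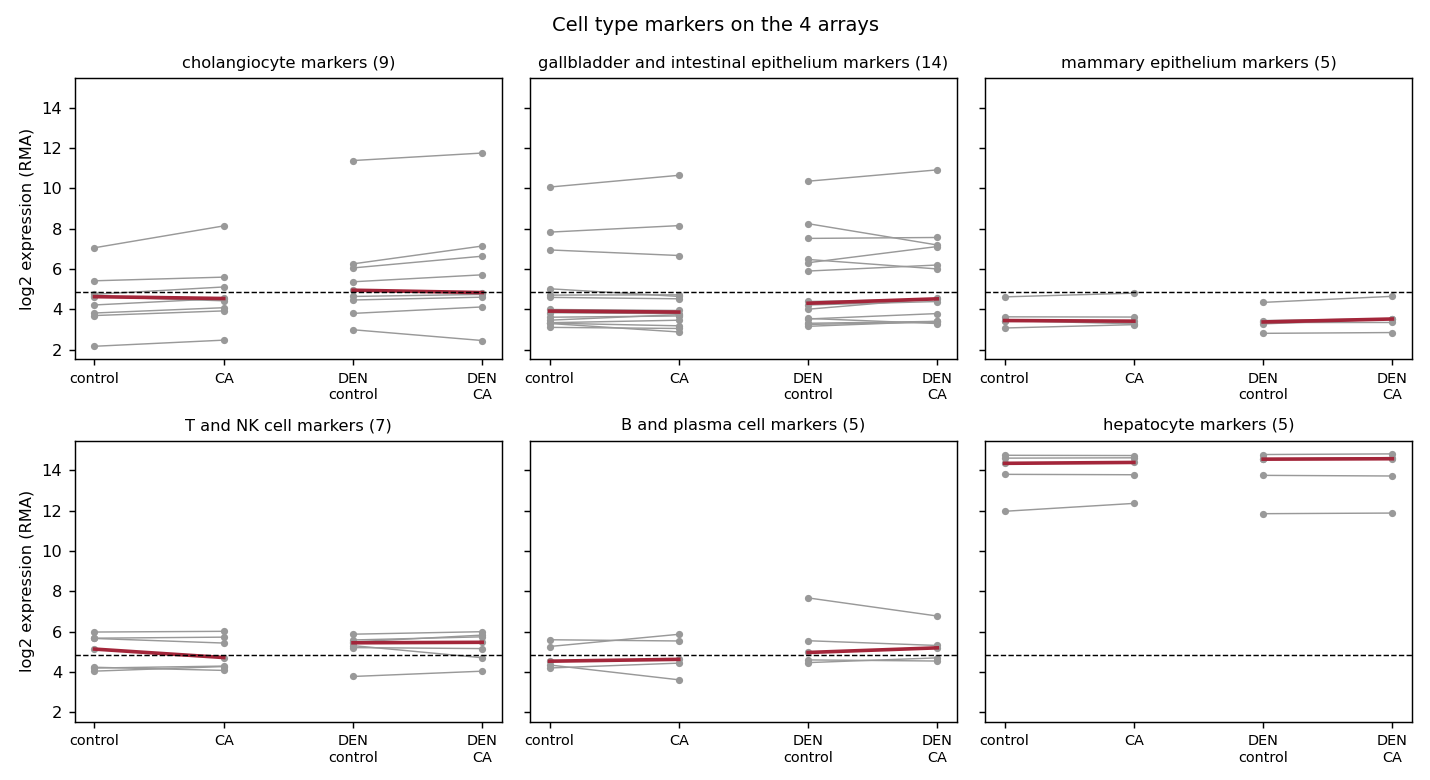
Log2 level (y axis) of each measured marker (grey) on the 4 arrays (x axis), joined within a DEN stratum, with the median of the list in red and the median of all probe sets dashed; the number of markers is in each title. The mammary markers lie under the dashed line on every array, hepatocyte markers stay between 11.9 and 14.8, and single cholangiocyte and intestinal markers are high on both DEN arrays.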

How the data were processed

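Total RNA of 4 liver pools was labelled with biotin, per the labels' protocols, and hybridised to 1 array each. The deposited values are log2 expression values. Per the submitters' processing notes, the authors used Partek 6.5 and RMA (options: not given in the sources used here). RMA draws the distributions of the arrays together, so a change of most genes in 1 direction would be removed. Array medians lay between 4.84 and 4.86, and the number of arrays limits the precision.

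Of 45101 probe sets, 34958 carry a single symbol in the platform annotation, 932 carry several and 9211 are unnamed here. The probe set with the highest 4-array mean stood for a gene. Limits, thresholds and differences are as given above, computed with Python 3.11.15, numpy 2.4.6, pandas 2.3.3 and statsmodels 0.14.6, and tested on simulated data. The members, the 16 gene and marker lists and the motifs were chosen with earlier results of these data known. The text names all members, their 3 nearest genes, up to 4 list genes with the largest diet differences, and genes that define a list. Alternatives were 3 scalings, low values raised, the mean over probe sets, a 1.5-fold threshold, and 2 other filters for lists.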

Additional observations from a re-analysis of the deposited data

Results flagged for a closer look

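With 1 pool per group, the following differences between strata were not tested. The CA diet effect as measured had opposite signs without and after DEN in 3 members, of which only Wfdc12 had all its levels above the limit of 4.86. In Csn3 it was -0.34 and 2.0, a difference of 2.34, with both levels without DEN under the limit, so that the sign of the first has no interpretable order. In Wfdc12 it was -0.52 and 1.44, a difference of 1.95. In Vil1 it was -0.072 and 1.69, a difference of 1.76, with the same reservation as for Csn3. The DEN effect had opposite signs on the control and the CA diet in Obp2a, at -0.55 and 0.47, a difference of 1.02, where the level after DEN on the control diet lay under 4.86.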

How the results depend on the processing

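The counts of members past 2-fold in the 4 comparisons, and of members whose diet effects differed by 2-fold between the DEN strata, stayed within 1.5 times the reported count in all 30 combinations of count and alternative. Of 175 member values under the alternatives, 159 moved by less than the largest hybridization control difference and 16 moved by more. All 16 came from raising low values (9) or averaging probe sets (7), and only Hsd17b6 changed sign (DEN on the CA diet, 0.29, and -0.045 with probe sets averaged). Centring each array on the median of expressed genes moved the DEN differences on the control diet by -0.16. Of 348 list medians under the alternatives, 334 moved by less than the control difference and 12 by more. The other 2 were reversed: without a filter on low values the median of the intestinal and gallbladder markers was -0.12 instead of 1.10 for DEN on the control diet and -0.045 instead of 1.26 on the CA diet, since 8 unexpressed markers then entered. No paired analysis was possible because each group is 1 array. Levels under 4.86 lie close to background, so Csn3, Vil1 and the low Wnk4 and Obp2a levels give lower bounds of folds.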
